A study of Homo sapiens with 6 samples.

Results

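The 105 LINC genes described here, named as long intergenic non-coding RNAs, are the rows whose deposited gene name begins with LINC followed by digits, out of 4439 genes in the table. The name alone chose them, so they share a naming scheme rather than a pathway. GENCODE types 91 of them as lincRNA, 7 as processed transcripts, 2 as antisense, 1 as sense-overlapping and 1 as a bidirectional promoter RNA. It types LINC01085 and LINC01835 as transcribed pseudogenes and LINC00672, now named LASP1NB, as protein-coding, and 6 of the 105 overlap an annotated protein-coding gene. RNA was sequenced from 6 libraries of HCC827, an established human line of lung adenocarcinoma with an activating EGFR mutation. There were 3 libraries of the parental line, labelled sensitive to osimertinib, an inhibitor of mutant EGFR, and 3 of HCC827OR, a derivative of HCC827 that grew in osimertinib. HCC827OR came from stepwise exposure of the parental cells, starting at 10 nM and ending at 5 µM, with 1 month at each step. There is a single resistant derivative, so selection by the drug and other changes of these cells in culture cannot be told apart. The sources used here do not give whether the drug was present at harvest. The table holds only genes that the authors had already called different, with an adjusted p under 0.05 and a change of at least 1 on the log2 scale in either direction. LINC genes that did not differ are therefore not analysed here, and all counts below describe a selected set.

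LINC symbols are given to long RNAs with no conserved open reading frame, most of them transcribed by RNA polymerase II, spliced and polyadenylated like messenger RNAs. Their promoters tend to be used in fewer cell types than those of protein-coding genes, and their transcripts are usually scarcer. Some act on chromatin near the site where they are made, others bind proteins or microRNAs elsewhere in the cell, and for many no function is established.

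The unit of the deposited values is not named. Its scaling was read only from genes with 1 annotated transcript that were listed at 0 in at least 2 libraries. Their smallest value above 0 fell with exonic length, as in a unit scaled per length. The median was 0.39 over 73 such genes of up to 1000 exonic bases and 0.04 over 14 of more than 4000. Levels are compared between genes on that reading. Depth is unknown, so a gene at 0 is called listed at 0. Libraries are written in the order of replicates 1, 2 and 3. Of the 105 LINC genes, 88, 91 and 92 were above 0 in the parental libraries, against 99, 102 and 99 in the resistant ones. Parental library 3 stood apart on the high side: it held the highest parental value for 44 LINC genes, against 24 and 29 in parental libraries 1 and 2. It lay at least 2 times above both other parental libraries for 18 LINC genes, against 7 and 8. Both others were at least 2 times above it for 12 LINC genes, against 11 for library 1 and 1 for library 2. Its sum over all genes of the table was also the highest of the parental line, at 145175 against 120825 and 115790. Several results that rest on parental library 3, though not all, are given with and without it. The labels do not state that replicates of a line were separate cultures, so a p-value here reflects library-to-library spread, possibly technical spread alone. In such bulk RNA, fewer expressing cells and less RNA per cell cannot be told apart.

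LINC genes were more often higher than lower in the resistant line. In the authors' deposited table, a total of 76 of 105 (72.4%) had a positive log2 fold change and 29 (27.6%) a negative one, where the whole table had 53.9% positive and 46.1% negative. By line mean, 52.3% of 3487 protein-coding genes and 62.3% of 599 other long non-coding genes were higher. The 3 resistant libraries all lay above the 3 parental ones for 70 LINC genes and all below them for 27, and the lines overlapped for 8. Over all genes, 51.8% lay wholly above and 43.4% wholly below. These shares are a description of the authors' selection, with no test of the difference between gene classes. They depend on naming: with membership by current symbol 83 genes were higher and 42 lower, a weaker lean.

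**Figure D1:**
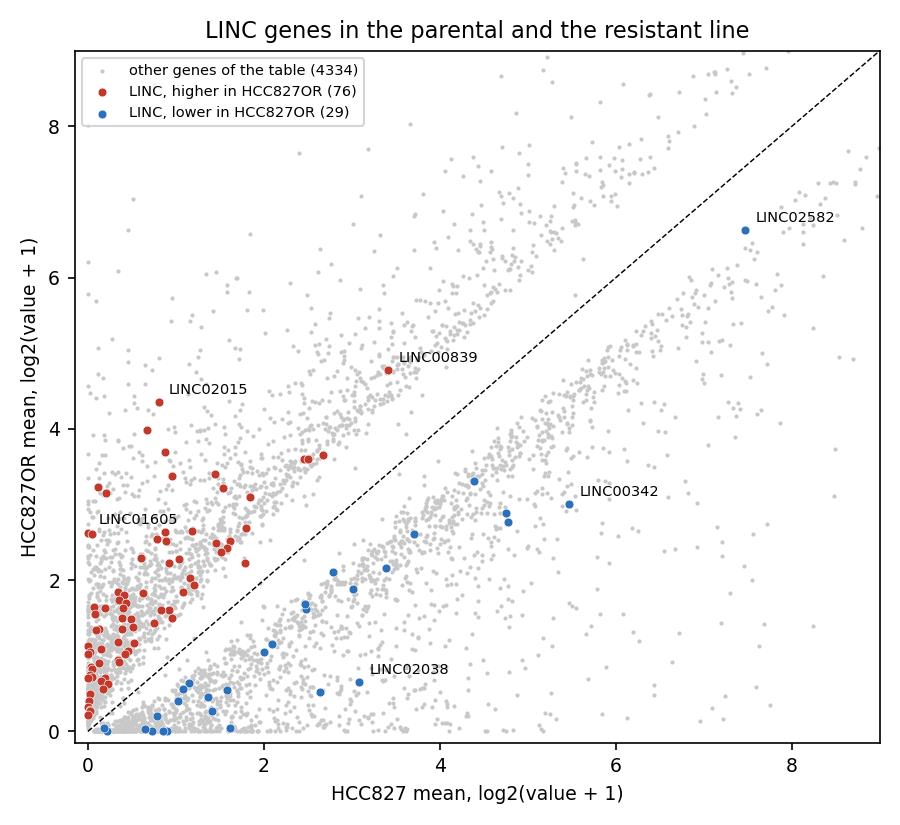
Mean value in HCC827 (x axis) against HCC827OR (y axis), both as log2(value + 1), for each gene of the table, with LINC genes higher in HCC827OR in red, lower ones in blue and the other 4334 genes in grey; 58 grey genes beyond 9 on either axis are not drawn. The table holds only called genes, and the 76 red points crowd towards low parental values. The most abundant LINC gene, LINC02582, lies below the dashed line of equal means, at 176 in HCC827 and 97.7 in HCC827OR, a 1.80-fold difference.

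LINC genes were scarce transcripts in this table. Taking each gene by its mean in the line where it was higher, the median LINC level was 2.11, with quartiles of 1.04 and 5.22 and a range from 0.14 to 176. The median was 7.30 for protein-coding genes and 2.08 for the other long non-coding genes. Of the LINC genes, 25 stayed below 1 in their higher line, 51 lay between 1 and 5, 23 between 5 and 20, and 6 reached 20 or more. Of these 6 the resistant line had the higher mean for LINC00839 only. Among LINC genes higher in the resistant line the median level moved from 0.337 in parental cells to 2.10, and among lower ones from 3.01 to 0.553. The summed LINC level was 375, 372 and 559 in parental libraries 1 to 3 against 443, 454 and 432 in resistant libraries 1 to 3. A single gene, LINC02582, made up 36.2%, 35.5% and 46.6% of the parental sums and 22.2%, 21.8% and 22.2% of the resistant ones. Without it the sums were 239, 240.0 and 299 in parental cells and 344, 355 and 336 in resistant ones, and every resistant sum was above every parental one. As a share of the summed values of all genes in the table, the LINC genes made up 0.310%, 0.322% and 0.385% in parental libraries and 0.292%, 0.303% and 0.284% in resistant ones, so by this measure every resistant library was below every parental one. Without LINC02582 the shares were 0.198%, 0.207% and 0.206% in parental libraries and 0.227%, 0.237% and 0.221% in resistant ones, and that order turned round.

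**Figure D2:**
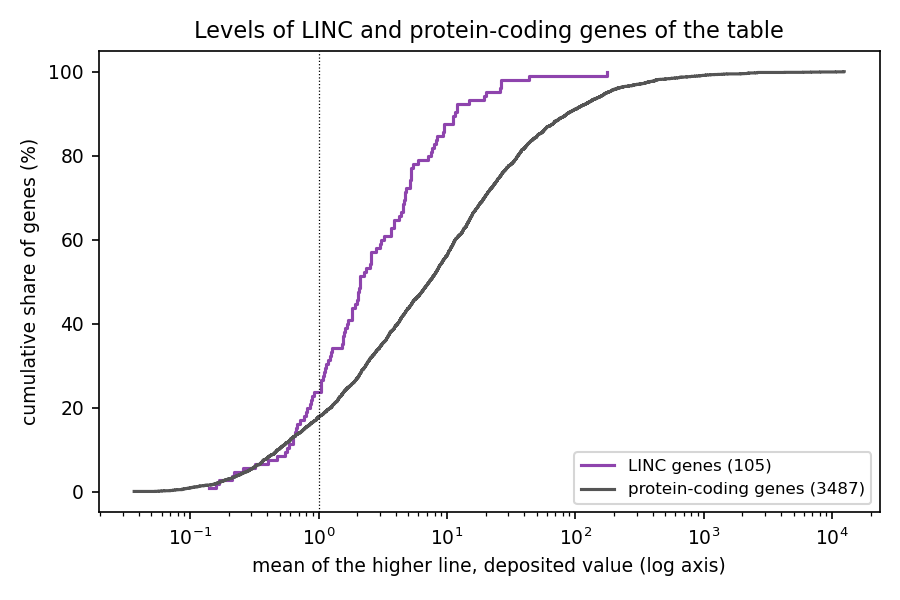
Cumulative share of genes (y axis, percent) by the mean deposited value in the line where the gene was higher (x axis, log scale), for the 105 LINC genes and the 3487 protein-coding genes of the table. The LINC curve reaches its middle at 2.11 and the protein-coding curve at 7.30; the dotted line marks a value of 1.

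Altogether 8 LINC genes were listed at 0 in all 3 libraries of 1 line and are here called on/off genes. Promoters of 5 of them, all listed at 0 in the parental libraries, are shown as the RefSeq starts of genes whose RNA was listed in 1 line only. The table is per gene and does not record which start was used, and the RefSeq start of LINC00299 lies inside its GENCODE gene body. Each is the run from 250 bases before to 50 bases after the start in RefSeq on GRCh38.p14, written from 5′ to 3′ on the gene's strand. Capitals mark the letters searched on both strands: TGANTCA for AP-1, GGAATG for TEAD, CCAAT for the CCAAT box and TATAAA for the TATA box.
LINC00158: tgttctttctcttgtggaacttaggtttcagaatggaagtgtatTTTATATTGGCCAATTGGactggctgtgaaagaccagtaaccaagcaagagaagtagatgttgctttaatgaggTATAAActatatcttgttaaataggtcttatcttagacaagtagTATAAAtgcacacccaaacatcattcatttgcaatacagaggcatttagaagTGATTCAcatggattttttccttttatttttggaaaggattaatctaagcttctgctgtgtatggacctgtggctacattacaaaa
LINC00488: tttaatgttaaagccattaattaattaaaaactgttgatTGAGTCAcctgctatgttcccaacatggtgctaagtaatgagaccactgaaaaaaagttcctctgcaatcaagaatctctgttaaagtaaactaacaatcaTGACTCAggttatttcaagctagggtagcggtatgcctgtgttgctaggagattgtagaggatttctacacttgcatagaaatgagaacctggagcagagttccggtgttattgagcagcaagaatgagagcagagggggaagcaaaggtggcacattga
LINC01363: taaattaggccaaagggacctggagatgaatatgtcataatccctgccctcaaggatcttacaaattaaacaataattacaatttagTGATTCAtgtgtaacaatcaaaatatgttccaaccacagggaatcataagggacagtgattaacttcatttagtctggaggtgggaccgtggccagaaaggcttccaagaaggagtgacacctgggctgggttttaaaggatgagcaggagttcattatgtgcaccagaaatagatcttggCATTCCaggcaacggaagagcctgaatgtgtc
LINC00996: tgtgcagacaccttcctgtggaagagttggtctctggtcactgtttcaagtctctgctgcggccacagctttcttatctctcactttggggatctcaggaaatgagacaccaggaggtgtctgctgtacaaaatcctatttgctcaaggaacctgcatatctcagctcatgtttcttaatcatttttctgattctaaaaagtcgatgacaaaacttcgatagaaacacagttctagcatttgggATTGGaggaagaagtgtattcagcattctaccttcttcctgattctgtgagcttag
LINC00299: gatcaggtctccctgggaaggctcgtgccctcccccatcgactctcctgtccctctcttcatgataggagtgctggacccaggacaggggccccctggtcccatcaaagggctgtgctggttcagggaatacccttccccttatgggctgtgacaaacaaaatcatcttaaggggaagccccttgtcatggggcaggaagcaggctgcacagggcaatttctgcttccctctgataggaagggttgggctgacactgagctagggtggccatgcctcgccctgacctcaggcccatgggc
They lie at chr21:25431652-25431951 (minus strand) for LINC00158, chr3:109177915-109178214 (plus) for LINC00488, chr1:167195756-167196055 (minus) for LINC01363, chr7:150433404-150433703 (plus) for LINC00996 and chr2:8328370-8328669 (minus) for LINC00299.

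AP-1 is a dimer of Fos and Jun proteins that binds the letters TGANTCA. LINC00488 held these letters at bases 40 to 46 and 141 to 147 of the window, LINC01363 at 88 to 94 and LINC00158 at 215 to 221. LINC00158 also held TATAAA at bases 45 to 50 on the opposite strand, which overlaps by 1 base a CCAAT match at 50 to 54, and the CCAAT matches at 55 to 59 and 58 to 62 overlap each other. LINC01363 held GGAATG at bases 269 to 274 on the opposite strand, LINC00996 a single CCAAT at 245 to 249 on the opposite strand, and LINC00299 none of the letters. Over the 73 LINC genes with a promoter entry, 13 (17.8%) held the AP-1 letters, of which 8 were among 54 higher genes and 5 among 19 lower genes. Of all 35116 promoters in the table of RefSeq starts 7.71% held them, and of 1646 promoters of other LINC genes 13.4%. The TEAD letters stood in 15.1% of the LINC promoters and 14.0% of all, the NF-kB letters in 1.37% and 1.40%, CCAAT in 35.6% and 34.6%, and TATAAA in 11.0% and 11.5%. Among the promoters of other LINC genes the shares were 18.4% for TEAD, 1.22% for NF-kB, 36.2% for CCAAT and 16.3% for TATAAA. A match describes letters and shows no binding.

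There were 6 LINC genes listed at 0 in every parental library and 2 in every resistant library, which is 5.71% and 1.90% of the 105. Over the whole table the shares were 3.18% and 2.93%, and among the other long non-coding genes 5.84% and 4.01%. LINC01605 (ENSG00000253161, chr8:37421341-37554183, minus strand) was the most abundant of them, at 0 in all parental libraries and at 5.24, 4.58 and 5.75 in the resistant ones. Its 3 resistant values are close together and none of its parental libraries listed any RNA. LINC00996 (chr7:150433654-150448140, plus strand), beside the GIMAP genes that encode GTPases of lymphocytes, was at 0 in parental libraries and at 1.22, 0.72 and 1.61 in resistant ones. LINC01363 (chr1:167175917-167195792, minus strand, annotated as antisense) reached 1.21, 0.56 and 1.36. LINC00299 (chr2:8007771-8383621, minus strand) reached 0.20, 1.23 and 0.47, and its resistant libraries did not agree on a level. LINC00158 was at 0.31, 0.21 and 0.25 and LINC00488 at 0.22, 0.15 and 0.13, levels at which a listed 0 in the other line carries little information.

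In the opposite direction, LINC01559 (ENSG00000180861, chr12:13371089-13387167, minus strand) was at 0.42, 0.25 and 1.76 in parental libraries and listed at 0 in all resistant ones. Most of its parental level came from library 3. LINC02516 (chr4:124499942-124558434, minus strand) was at 0.29, 0.15 and 0.04 in parental libraries and at 0 in the resistant ones. At such levels a listed 0 in the other line carries little information. No fold change is given against a line at 0. Several LINC genes came close to the on/off pattern, and are named here after their values were seen. LINC01411 went from 0, 0.05 and 0 to 1.08, 0.94 and 1.22, LINC00702 from 0.01, 0.04 and 0.01 to 0.70, 0.41 and 0.92, and LINC00607 from 0.05, 0.04 and 0.02 to 0.59, 0.54 and 0.82. LINC00365 went the other way, from 1.36, 1.15 and 0.07 to 0, 0.02 and 0, and LINC01470 from 0.37, 1.19 and 0.43 to 0, 0.02 and 0. With a limit of 0.05 in place of 0 the counts became 12 for the parental and 5 for the resistant libraries, and with a mean of at least 0.5 asked of the other line they became 4 and 1. Without parental library 3 the parental count was 11, and without resistant library 2 the resistant count was 4. In at least 1 library, 30 of the 105 LINC genes were listed at 0.

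**Figure D3:**
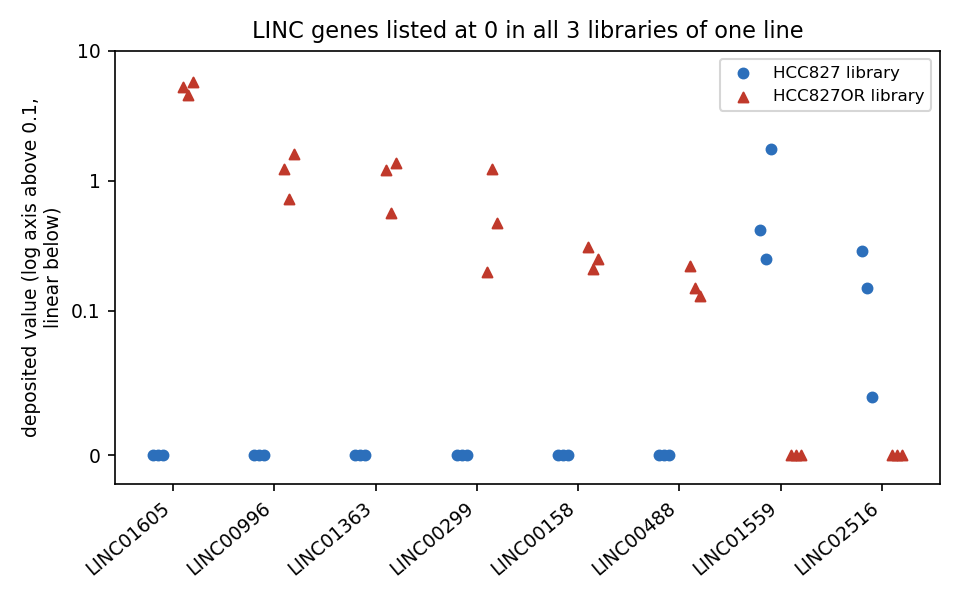
Deposited value (y axis, log scale above 0.1 and linear below) in each library for the 8 LINC genes listed at 0 in all 3 libraries of 1 line, with HCC827 libraries as blue circles and HCC827OR libraries as red triangles. LINC01605 stands highest, between 4.58 and 5.75 in HCC827OR, and LINC01559 has a single parental library at 1.76 above the others.

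By limma on log2(value + 1), 68 LINC genes passed the filter, which asked for 1 or more in 3 or more of the 6 libraries. Of these 50 rose and 14 fell in the resistant line at an adjusted p under 0.05, while 4 missed that threshold. Over all 3332 genes tested, 52.5% rose and 45.0% fell. The other 37 LINC genes were not tested, 25 with a higher and 12 with a lower mean in the resistant line. Of the 68, 25 passed the filter through the libraries of 1 line alone and so had to differ. All of these but LINC02038, LINC01446 and LINC02542 were higher in the resistant line, so the filter fixed the direction of many rises. They include LINC01588, LINC01583, LINC01605, LINC01444 and LINC01638, described below among the largest rises, and LINC01111. The adjusted p-values printed for them, and for LINC02038 and LINC01446, are a description and no support for a rise or fall. The share of all tested genes that passed through 1 line alone was not computed. The median log2 difference was 1.01 for LINC genes and 0.74 for all tested genes, on a scale that understates the change of low genes. When libraries were rescaled by median ratios, the median of all tested genes moved to 0.32 and that of LINC genes to 0.55, with 42 LINC genes risen and 17 fallen. Over all tested genes that scaling gave 1523 risen and 1547 fallen. Its factors came from genes detected in all 6 libraries, and it centres the typical gene of those. The split was therefore drawn towards even by the method, although the median of all tested genes stayed at 0.32. Every gene had been picked for differing, so this scaling cannot decide whether the lean towards higher calls is real. Because the authors had picked every gene for differing between the same libraries, these calls are no independent evidence of a difference.

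**Figure D4:**
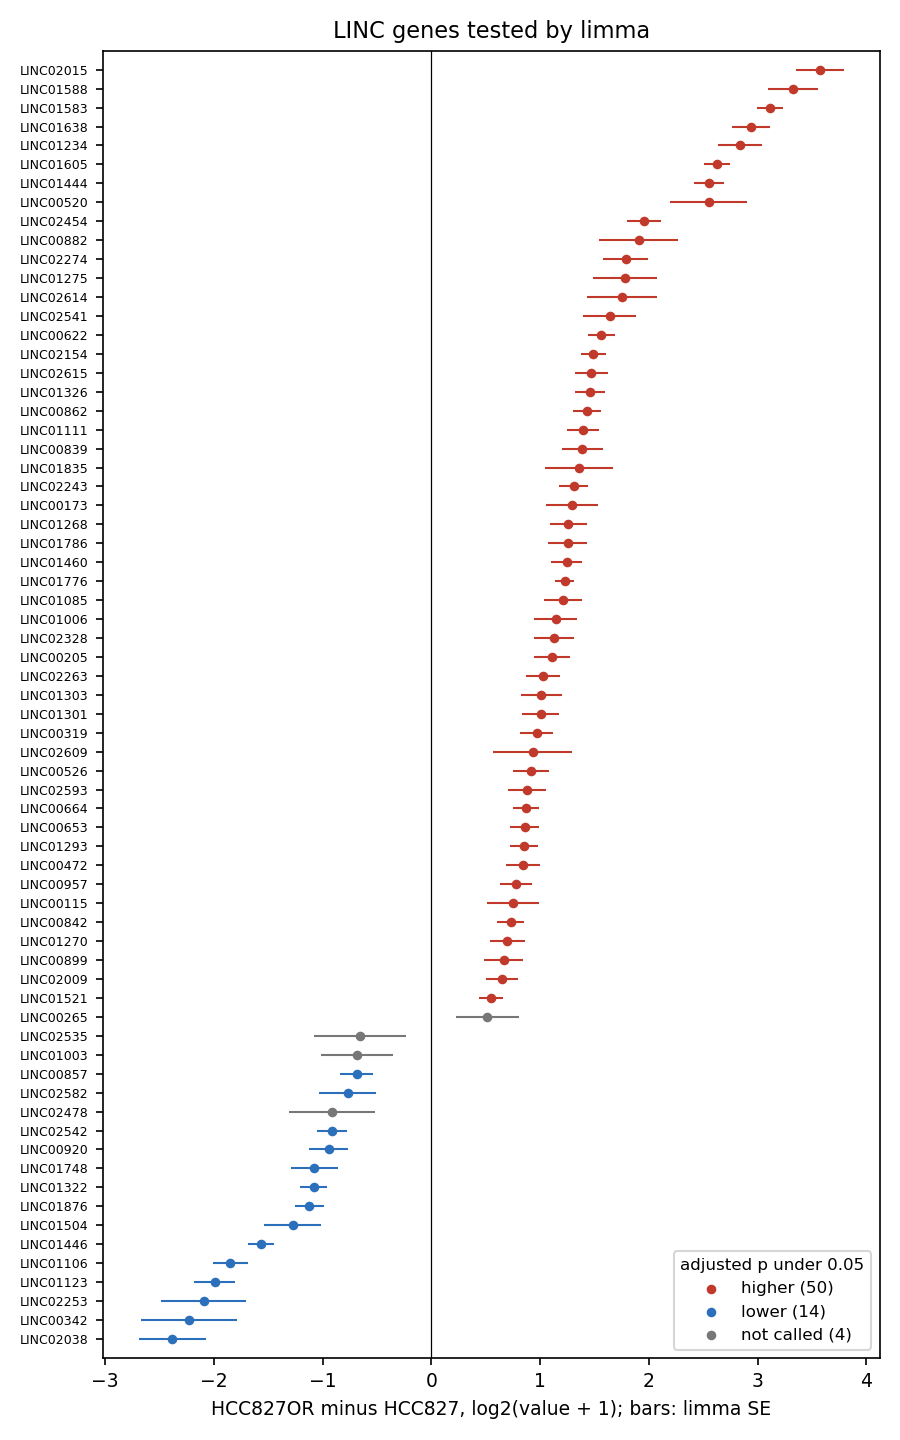
Difference between HCC827OR and HCC827 in log2(value + 1) (x axis) for the 68 LINC genes tested by limma, ordered by size, with bars of 1 standard error; red genes rose, blue genes fell at an adjusted p under 0.05, and grey genes missed the threshold. Estimates run from -2.39 for LINC02038 to 3.58 for LINC02015, and the bars are widest for LINC00342 and LINC02535.

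The 8 largest rises were of genes that were scarce in parental cells, with parental means from 0 for LINC01605 to 0.933 for LINC00520. LINC01588, LINC01583, LINC01605, LINC01444 and LINC01638 passed the filter through resistant libraries alone, which fixed their direction. LINC02015 (ENSG00000231574, chr3:177816865-177899224, plus strand) stood at 0.48, 0.43 and 1.33 in parental cells and at 17.43, 21.38 and 19.37 in resistant ones, and no resistant value came near the parental ones. Its means were 0.747 ± 0.506 and 19.4 ± 1.98 (SD, n = 3), a 26.0-fold difference that became 42.6-fold without parental library 3. On the log2(value + 1) scale it rose by 3.58 (SE 0.22, limma adjusted p = 7.76e-06). LINC01588 (chr14:49927571-50092643, minus strand), with 14763 exonic bases the longest of the genes named here, stood at 0.24, 0.57 and 0.97 in parental cells and at 17.5, 11.72 and 15.45 in resistant ones. It rose by 3.33 (SE 0.23, limma adjusted p = 1.21e-05), and its lines were far apart although its resistant libraries varied.

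LINC01583 (ENSG00000259518, chr15:82088594-82097694, plus strand) stood at 0.10, 0.10 and 0.06 in parental cells and at 8.61, 7.97 and 8.64 in resistant ones. It rose by 3.11 (SE 0.12, limma adjusted p = 1.36e-06), and its resistant libraries lay close together. LINC01444 (chr18:14969001-14970468, minus strand) was at 0.11 in parental library 1, at 0 in the other parental libraries, and at 4.75, 4.55 and 6.10 in resistant ones. LINC01444 rose by 2.56 (SE 0.14, limma adjusted p = 4.69e-06), and without parental library 1 it would be on/off. LINC01605, described above, rose by 2.63 on this scale (SE 0.12, limma adjusted p = 2.27e-06).

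LINC01638 (chr22:27221349-27224727, minus strand), studied in breast cancer cells as a partner of MYC, stood at 0.35, 0.12 and 0 in parental cells and at 8.14, 8.98 and 6.54 in resistant ones. It rose by 2.94 (SE 0.18, limma adjusted p = 6.81e-06). LINC01234 (ENSG00000249550, chr12:113679459-113773683, minus strand), described in lung and gastric cancer as promoting growth, stood at 0.52, 1.37 and 0.64 in parental cells and at 11.78, 11.04 and 13.18 in resistant ones. It rose by 2.84 (SE 0.20, limma adjusted p = 1.45e-05), and its means of 0.843 ± 0.460 and 12.0 ± 1.09 (SD, n = 3) differed 14.2-fold. LINC00520 (chr14:55781132-55796731, minus strand), described in breast cancer cells downstream of SRC, stood at 0.80, 1.96 and 0.04 in parental cells and at 8.94, 9.68 and 9.54 in resistant ones. Its parental libraries spread widely and its resistant ones hardly at all. It rose by 2.55 (SE 0.35, limma adjusted p = 0.00034), and its fold of 10.1 became 22.4 without parental library 2.

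Among the other 42 risen LINC genes the estimates ran from 0.55 for LINC01521 to 1.95 for LINC02454. The most abundant of them was LINC00839 (ENSG00000185904, chr10:42475543-42495336, plus strand), at 10.79, 11.24 and 6.93 in parental cells and 25.12, 27.79 and 26.25 in resistant ones. Its parental level was above those of the 8 genes with the largest rises, and it rose by 1.39 (SE 0.19, limma adjusted p = 0.000295). Its means of 9.65 ± 2.37 and 26.4 ± 1.34 (SD, n = 3) differed 2.73-fold. LINC02609 was called higher by limma although its lines overlapped, at 3.80, 2.63 and 1.01 against 7.69, 3.75 and 4.87, and the call was lost without parental library 2 or 3 or resistant library 1 or 3 (limma adjusted p from 0.0644 to 0.129). It was named after its values were seen.

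The 8 largest falls were of genes with parental means from 2.07 for LINC01446 to 43.4 for LINC00342. LINC02038 and LINC01446 passed the filter through parental libraries alone, which fixed their direction. LINC02038 (ENSG00000229155, chr3:193842560-193844024, minus strand) stood at 6.48, 4.75 and 11.25 in parental cells and at 0.87, 0.19 and 0.66 in resistant ones. It fell by 2.39 (SE 0.31, limma adjusted p = 0.000238), and its means of 7.49 ± 3.37 and 0.573 ± 0.348 (SD, n = 3) differed 13.1-fold. LINC00342 (ENSG00000232931, chr2:95807118-95816215, minus strand), reported as raised in lung cancer, stood at 23.72, 25.27 and 81.13 in parental cells and at 6.39, 7.88 and 6.84 in resistant ones. Parental library 3 held more than 3 times the level of the other parental libraries. LINC00342 fell by 2.23 (SE 0.44, limma adjusted p = 0.00198), and its fold of 6.16 became 3.48 without parental library 3, where it still fell. A LINC00342 transcript of 654 bases matched AC092683.1 over its whole length at 98.9% identity, so reads of these loci may not be assignable to either.

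LINC01123 (ENSG00000204588, chr2:109987063-109996140, plus strand) and LINC01106 (ENSG00000175772, chr2:110375138-110384442, minus strand) lie 379 kb apart and showed nearly the same values. LINC01123 stood at 29.81, 28.89 and 20.46 in parental cells and 6.92, 5.65 and 4.93 in resistant ones. LINC01106 stood at 27.98, 28.74 and 20.92 in parental cells and 6.33, 7.05 and 5.81 in resistant ones. In both, parental library 3 was the lowest of the parental line and the lines did not overlap. LINC01123 fell by 1.99 (SE 0.19, limma adjusted p = 5.69e-05) and LINC01106 by 1.85 (SE 0.16, limma adjusted p = 3.62e-05). Their transcripts are 99.51% identical over 2256 bases, and their values cannot be taken as measurements of separate genes. Their promoters are shown because they are copies too: the longest shared run, in capitals, is 289 of 300 bases, in RefSeq sequence on GRCh38.p14 at chr2:110384487-110384786 (minus strand) for LINC01106 and chr2:109986730-109987029 (plus strand) for LINC01123.
LINC01106: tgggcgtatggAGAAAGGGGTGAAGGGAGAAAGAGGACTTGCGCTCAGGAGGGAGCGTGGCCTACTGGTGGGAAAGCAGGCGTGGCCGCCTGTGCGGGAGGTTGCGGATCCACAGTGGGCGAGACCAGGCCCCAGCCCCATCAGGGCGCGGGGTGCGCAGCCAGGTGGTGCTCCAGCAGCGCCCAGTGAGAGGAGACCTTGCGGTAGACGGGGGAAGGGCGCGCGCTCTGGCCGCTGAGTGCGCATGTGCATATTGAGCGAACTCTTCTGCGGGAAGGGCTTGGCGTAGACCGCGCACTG
LINC01123: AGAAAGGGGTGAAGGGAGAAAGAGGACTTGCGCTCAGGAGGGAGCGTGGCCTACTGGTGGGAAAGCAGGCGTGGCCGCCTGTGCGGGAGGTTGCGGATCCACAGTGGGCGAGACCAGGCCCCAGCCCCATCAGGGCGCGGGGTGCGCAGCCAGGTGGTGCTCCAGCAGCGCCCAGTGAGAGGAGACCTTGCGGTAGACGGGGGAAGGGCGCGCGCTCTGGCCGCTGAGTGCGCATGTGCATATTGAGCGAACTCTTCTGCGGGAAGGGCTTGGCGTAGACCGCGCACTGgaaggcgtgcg

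LINC02253 (chr15:97295881-97432094, plus strand) stood at 3.25, 3.85 and 8.57 in parental cells and at 0, 1.12 and 0.19 in resistant ones. It fell by 2.10 (SE 0.39, limma adjusted p = 0.00137), and its fold of 12.0 became 55.0 without resistant library 2. LINC01446 (ENSG00000205628, chr7:53655509-53811931, minus strand) stood at 1.93, 1.76 and 2.53 in parental libraries, at 0 in resistant libraries 1 and 2 and at 0.10 in resistant library 3. It came within a single value of being off in the resistant line, and it fell by 1.57 (SE 0.12, limma adjusted p = 2.06e-05). LINC01504 (chr9:72305430-72343210, plus strand) stood at 9.49, 8.42 and 10.6 against 3.66, 4.86 and 1.95 and fell by 1.28 (SE 0.26, limma adjusted p = 0.00227). LINC01876 (chr2:156011530-156254950, minus strand) stood at 6.66, 7.25 and 7.28 against 2.49, 2.91 and 2.71 and fell by 1.12 (SE 0.13, limma adjusted p = 0.000159). In both of these genes the libraries of a line agreed better than the lines did, most closely in LINC01876.

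The most abundant LINC gene, LINC02582 (ENSG00000261780, chr18:73324941-73349878, plus strand), stood at 135.51, 132.34 and 260.63 in parental cells and at 98.24, 98.93 and 95.82 in resistant ones. The lines did not overlap, but parental library 3 stood far above the other parental libraries. It fell by 0.77 (SE 0.26, limma adjusted p = 0.0224). Without parental library 3 it fell by 0.45 (limma adjusted p = 0.000126), and its fold between means moved from 1.80 to 1.37. With any single resistant library left out the limma adjusted p was between 0.0552 and 0.0616, so the call was lost. LINC01322 (chr3:165206960-165655423, plus strand) stood at 18.85, 21.97 and 19.21 in parental libraries against 9.05, 9.22 and 8.43 and fell by 1.08 (SE 0.12, limma adjusted p = 0.00012). LINC01748 (chr1:60515716-60640491, minus strand) stood at 14.94, 9.31 and 11.78 against 5.60, 5.91 and 3.90 and fell by 1.08 (SE 0.22, limma adjusted p = 0.00206). Each of these abundant genes kept part of its parental level in the resistant line.

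Of a list of 45 LINC genes described in lung cancer or epithelial tissue, 8 were in the table, of which 6 rose and 2 fell by limma. That is near the split of all 68 tested LINC genes, of which 50 rose and 14 fell. LINC01234, LINC01638, LINC00520 and LINC00342 are described above. LINC00882 stood at 1.95, 0.56 and 0 in parental cells and 4.78, 5.49 and 5.46 in resistant ones and rose by 1.91 (SE 0.36, limma adjusted p = 0.00165), with a fold of 6.27 that became 18.7 without parental library 1. LINC01111 stood at 0.20, 0.51 and 0.28 in parental cells and 2.40, 3.04 and 2.08 in resistant ones and rose by 1.40 (SE 0.15, limma adjusted p = 9.10e-05). LINC01111, like LINC01638, passed the filter through resistant libraries alone and so had to be higher. LINC00472, described in breast cancer as a growth suppressor, stood at 1.83, 2.35 and 1.80 in parental cells and 4.10, 5.04 and 3.96 in resistant ones. LINC00472 rose by 0.84 (SE 0.15, limma adjusted p = 0.00133), and was not called after median-ratio scaling, where the estimate was 0.33 (limma adjusted p = 0.0973). LINC00857, described as promoting growth of lung adenocarcinoma cells, stood at 6.18, 6.07 and 5.47 in parental cells and 3.50, 2.76 and 3.64 in resistant ones. LINC00857 fell by 0.69 (SE 0.15, limma adjusted p = 0.00299), and its lines did not overlap.

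The 4 tested LINC genes that limma did not call, although the authors had, all had a line whose libraries disagreed. LINC02535 stood at 2.53, 2.17 and 9.05 in parental cells and 2.12, 2.00 and 2.08 in resistant ones (limma adjusted p = 0.165), and its fold of 2.22 became 1.14 without parental library 3. LINC01003 stood at 5.66, 5.98 and 1.95 against 2.34, 2.26 and 2.02 (limma adjusted p = 0.0787), and without parental library 3 it was called lower (limma adjusted p = 8.82e-05). LINC00265 stood at 2.11, 1.26 and 3.95 against 3.09, 4.41 and 3.59 (limma adjusted p = 0.122), and without parental library 3 it was called higher (limma adjusted p = 0.00436). In these 3 genes parental library 3 was the farthest from the other parental libraries. LINC02478 stood at 1.35, 4.01 and 4.42 against 0.43, 2.04 and 1.19 (limma adjusted p = 0.0542). It was called lower without parental library 1 (limma adjusted p = 0.00943) or without resistant library 2 (limma adjusted p = 0.033). For LINC00265 the authors' deposited table gave a log2 fold change of 1.18, where the means of its libraries differed 1.52-fold.

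LINC genes and their protein-coding neighbours went the same way about as often as neighbouring coding genes did. Within 100 kb, 33 of the 105 LINC genes had a protein-coding gene of the table as neighbour, and 23 of these pairs (69.7%) had the same direction and 10 the opposite one. Among protein-coding genes with such a neighbour, 1317 of 1879 (70.1%) had the same direction. Within 20 kb the shares were 80.0% of 10 pairs and 74.7%, and within 500 kb 68.7% of 67 pairs and 65.3%. A further description by position is that 33 of the 105 had no annotated protein-coding gene within 100 kb.

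Single pairs varied in both lines. LINC01583 lay 42453 bases from MEX3B, an RNA-binding protein gene, whose mean went from 0.567 ± 0.438 to 4.67 (n = 3), in the same direction. LINC02478 lay 57405 bases from ITGB6, the β6 integrin subunit of epithelial cells, at a mean of 50.3 in parental cells and 0.62 in resistant ones. LINC02535 lay 59398 bases from NT5E, which encodes the ecto-nucleotidase CD73, at 93.1 and 14.6. In these last pairs the coding gene differed far more than the LINC gene. LINC00996 lay 2490 bases from GIMAP8, itself low at 0.0167 in parental cells and 0.487 in resistant ones. LINC00342 lay 20704 bases from ANKRD36C, at 20.6 ± 16.8 in parental cells and 3.48 in resistant ones, so that both genes of the pair had widely spread parental values. LINC01504 lay 8215 bases from ZFAND5, at 238 in parental cells and 96.6 in resistant ones. All of these neighbours are the nearest coding genes of the table. RBMS1, 271 bases from LINC02478, and EFL1, 32536 bases from LINC01583, are annotated nearer but are not among its coding genes.

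Opposite pairs included close ones. LINC01521 lay 545 bases from PATZ1, a zinc finger transcription factor, and was higher while PATZ1 went from 15.1 to 7.40. LINC01126 lay 601 bases from ZFP36L2, which promotes decay of messenger RNAs with AU-rich elements, and was higher by mean while ZFP36L2 went from 21.4 to 8.77. LINC00205, annotated as sharing a bidirectional promoter, lay 152 bases from POFUT2, an O-fucosyltransferase gene, and both were higher, POFUT2 going from 18.1 to 41.2. The sources used here do not say whether counting used strand, and reads of overlapping or closely spaced genes may be shared. The only LINC genes within 100 kb of each other were LINC02593 and LINC00115, 89.3 kb apart on chromosome 1. LINC02593 (chr1:916865-921016) stood at 1.56, 1.55 and 2.44 against 3.99, 4.75 and 3.87 and rose by 0.88 (SE 0.17, limma adjusted p = 0.00188). LINC00115 (chr1:826206-827522) stood at 1.58, 1.10 and 0.68 against 1.70, 2.52 and 3.53 and rose by 0.75 (SE 0.24, limma adjusted p = 0.0175), a call lost without resistant library 3 (limma adjusted p = 0.0544) and after either rescaling.

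**Figure D5:**
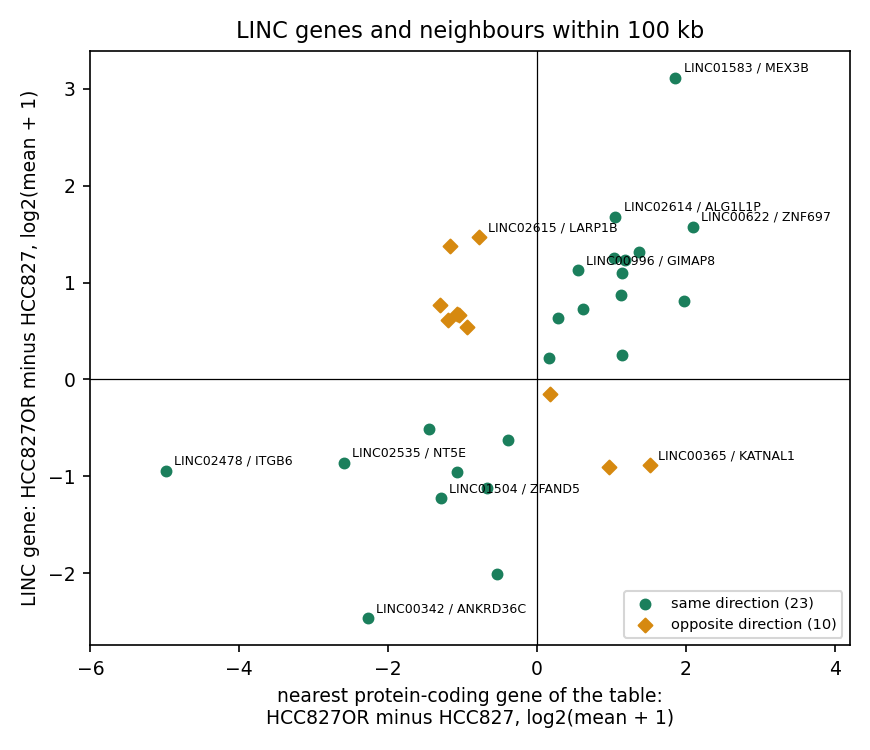
Difference between HCC827OR and HCC827 in log2(mean + 1) for the nearest protein-coding gene of the table (x axis) and for the LINC gene (y axis), for the 33 pairs within 100 kb. Green circles are the 23 pairs in the same direction and orange diamonds the 10 opposite pairs; ITGB6 and NT5E lie farthest to the left.

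Positions were also read in regions that earlier results of these data had shown to lean one way. On chromosome 18 up to 15 Mb, 52 of 53 other genes were higher in the resistant line and so were both LINC genes there, LINC01444 and LINC00526. On chromosome 8 beyond 50 Mb, 138 of 161 other genes were lower, whereas all 3 LINC genes there, LINC01111, LINC01301 and LINC01602, were higher. LINC01301 stood at 0.67, 0.37 and 0.18 in parental cells and at 1.92, 1.36 and 2.16 in resistant ones, and LINC01602 at 0.24, 0.29 and 0.30 against 1.17, 0.94 and 0.56. The lines did not overlap for either gene. These 3 were picked out after their values were seen and no test was made.

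Of a list of 70 long non-coding RNAs with names of their own, 19 were in the table and 15 were tested, of which 9 rose and 6 fell by limma. That is near the 52.5% and 45.0% of all tested genes. MIR99AHG, the host of a microRNA cluster, went from 0, 0.04 and 0.01 to 6.17, 7.73 and 5.51, and HOTAIR, which is transcribed from the HOXC cluster, from 1.22, 2.09 and 0.67 to 4.48, 4.19 and 4.46. SNHG1, a small nucleolar RNA host, went from 199.88, 236.06 and 123.67 to 93.92, 88.40 and 78.24. For each of these 3 RNAs the lines did not overlap. Markers of cell type moved with the comparison: 9 of 11 lung epithelial markers were in the table and all 9 fell by limma, their summed level going from between 6524 and 8006 to between 2063 and 2102. Of 11 mesenchymal and fibroblast markers 7 were in the table, all higher by mean and all 5 that were tested risen by limma, with summed levels from 181 to 227 in parental and from 1487 to 1626 in resistant libraries. Of these POSTN was listed at 0 in every parental library. None of 7 leukocyte markers, such as PTPRC, and 2 of 4 endothelial markers were in the table. The part of these marker shifts in the LINC results was not tested.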

How the data were processed

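RNA of 3 HCC827 and 3 HCC827OR libraries was sequenced. Sample titles gave the line and the replicate number. The authors' deposited table gives a normalized expression signal per library with 2 decimals, and the authors' own comparison as line means, a fold change (ratio), its log2 value and p-values with their adjusted form. The unit, normalization, test and annotation are not given in the file headers, so depth is unknown and no counting interval is given. The submitters' processing notes name Bowtie 0.12.2 and a mouse build, although the gene IDs are human, and the labels' extraction protocol is about retinas. Of 11 retina markers 2 were in the table, both low. These notes were not relied on.

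Members are deposited names of LINC and digits. Positions came by gene ID from GENCODE release 29 (GRCh38), for all 105, and 7 members now carry another symbol. limma 3.58.1 in R 4.3.3 was fitted, with its mean-variance trend, to log2(value + 1) over genes reaching 1 in 3 or more libraries. Benjamini-Hochberg adjustment covered all 3332 genes tested. The fit was tested on simulated data. Folds are ratios of line means. Near-identical copies were sought with BLAST 2.17.0 at 98% identity over at least 200 bases, which 16 members had. Promoters are RefSeq sequences on GRCh38.p14, matched by symbol for 73 of 105 members. Tables and plots were made with Python 3.11.15, pandas 2.3.3 and matplotlib 3.10.9.

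Named members are the on/off genes, the 10 most abundant, the 8 largest rises and falls, those tested and not called, those of the list of 45 and those within 100 kb of another member, with neighbouring genes. A few other members are given for their position. The members and lists were chosen with earlier results of these data known. Alternatives covered pseudocount, filter, scaling, trend, replicate block, threshold, on/off limits, distance, naming and each library left out.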

Additional observations from a re-analysis of the deposited data

How the results depend on the processing

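Deviations of same-numbered libraries correlated at 0.026, 0.026 and -0.028, which gave no sign of pairing by replicate number. This cannot show that same-numbered libraries shared no culture or day. With a replicate block limma called 50 LINC genes higher and 16 lower, adding LINC02478 (adjusted p = 0.00439) and LINC01003 (adjusted p = 0.0498). The filter on low values moved counts most. A minimum of 5 left 13 LINC genes higher and 9 lower, with 987 genes higher and 1012 lower in all. No filter gave 74 LINC genes higher and 26 lower, with 2310 genes higher and 1887 lower in all. Leaving out each library in turn gave 48 to 50 LINC genes higher and 13 to 15 lower. It gave 6 to 11 LINC genes listed at 0 in the parental line and 2 to 4 in the resistant line. A limit of 0.05 gave 12 and 5, and a mean of at least 0.5 in the other line 1 listed at 0 in the resistant line. Pairs with a coding neighbour in the same direction numbered 8 within 20 kb and 46 within 500 kb, against 23 within 100 kb. Equal library sums moved the median of all tested genes to 0.59 and gave 48 and 15 LINC calls. For the 30 LINC genes that the naming rule gave and limma tested, no direction reversed under these alternatives. For other LINC genes named here no such values were computed. Membership by current symbol left out 7 renamed members and added 27 genes deposited under other names. It gave 83 higher and 42 lower, so the lean towards higher genes was weaker. Values have 2 decimals and unknown depth, so folds of genes below about 0.1 in 1 line are imprecise.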
